A study of Mus musculus with 4 samples.

Results

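The cardiac calcium handling genes described here are the 10 rows of the count table whose gene symbol is Ryr2, Atp2a2, Slc8a1, Cacna1c, Cacna1d, Pln, Sln, Casq2, Camk2d or Jph2, out of 23337 gene rows. They were chosen by name. In a heart muscle cell each beat begins when L-type channels in the surface membrane let calcium in, which opens the ryanodine receptors of the sarcoplasmic reticulum so that stored calcium reaches the myofilaments. Relaxation follows when the SERCA pump returns calcium to the store and the sodium calcium exchanger carries the rest out of the cell. In the embryonic heart the store is still maturing, and the exchanger and surface channels are known to carry a large part of the cycle.

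The tissue was cardiac cushion, from which the heart valves form, of C57BL/6 mouse embryos at embryonic day 14.5. Wildtype libraries (2) were compared with libraries (2) from Nfatc1Cre;Brg1F/F mutants, in which Cre made from the Nfatc1 locus, active in the endocardium, removes floxed Brg1 (Smarca4), the motor subunit of SWI/SNF chromatin remodellers. The series text describes mutants and wildtype littermates as 2 pairs, and dissection was guided by GFP from a Cre reporter. How many embryos went into a library is not stated, so the p-values rest on library-to-library spread that may be partly technical. Paired values below are given for replicate 1 and then replicate 2 of each genotype.

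Reads in genes numbered 14104458 to 22426537 per library. Smarca4 itself was not lower in the libraries labelled mutant (log2 fold change 0.11 ± 0.14, SE, edgeR adjusted p = 0.979). These counts cover the whole gene and all cells of the tissue, so they do not bear out the genotype labels and cannot test them. Y-linked reads (Ddx3y, Uty, Eif2s3y and Kdm5d) were 1131 to 3384 per gene in mutant replicate 2 and 0 to 28 elsewhere, and Xist had 189 reads there against 36708 to 60417 elsewhere, so pair 2 differs in sex as well as genotype. The cushions held heart muscle: 20 sarcomere genes took 8.11% and 7.38% of gene reads in the wildtypes, against 6.65% and 7.17% in the mutants. Of 6 skeletal muscle genes listed, the defining genes Myod1, Myog and Myf5 had 0 to 6 reads per library. Actn3 had 7 to 19 reads, Mylpf 38 to 60 and Ckm 2604 to 6912. Endocardial Pecam1 and mesenchymal Postn averaged 186 and 1627 CPM, the depth-scaled read count with TMM factors. Of 11 leukocyte genes, 2 rose by edgeR (Ptprc and Ctss), where 0.0629% of all genes tested passed in either direction. The log2 fold changes of the 11 ran from 0.15 (Lyz2, with overlapping genotypes) to 1.97 (Ptprc), with a median of 0.94, and their summed level was 157 and 151 CPM in the wildtypes and 237 and 272 CPM in the mutants. The 6 erythroid genes were also above 0, with a median of 0.64, at 0.82 in pair 1 and 0.074 in pair 2, where 3 of the 6 were below 0. Of these, 0 were called by edgeR, while the replicate block and DESeq2 each called 1, Slc4a1, against 0.887% and 0.442% of all genes. The part of these cells in the results was not tested. In bulk tissue, fewer cells of a type and less RNA per cell cannot be told apart.

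All 10 members were read in every library and passed the low count filter. Together they took 0.935% and 0.921% of gene reads in the wildtypes, against 0.828% and 0.906% in the mutants. By edgeR's quasi-likelihood test 0 of 10 passed an adjusted p of 0.05, where 0.0629% of the 14316 genes tested passed. In the lower direction alone that share was 0.00699%. Without adjustment, p was under 0.05 for 1 member, Casq2, on the lower side, against 5.78% of all genes, 1.9% lower and 3.88% higher. That member count was 0 with upper-quartile scaling, without scaling factors and with libraries scaled to sarcomere reads. It was 2 by DESeq2, the edgeR likelihood ratio test and limma-voom, and without a low count filter. The members called were also 0 by DESeq2 (0.442% of all genes called), by the edgeR likelihood ratio test (1.19%), by limma-voom (0.0489%), without a low count filter (1.18%) and with libraries scaled to sarcomere reads (0.545%). With replicate number as a block 0 members were called, against 0.887% of all genes, and 2 members, Sln and Casq2, had an unadjusted p under 0.05, against 6.29%. In runs with 1 library left out, as next, the genotype left with 1 library is assumed to vary like the other. Leaving out wildtype replicate 1, wildtype replicate 2 or mutant replicate 1 gave 0 members too, against 0.0411%, 0.0203% and 1.24% of all genes, while leaving out mutant replicate 2 gave 2 members, Pln and Sln, against 3%.

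Levels differed widely among the members when set per kilobase (kb) of annotated exon. Pln, which encodes phospholamban, the inhibitor of the SERCA pump, was highest at a mean of 550.3 ± 113 CPM per kb (SD, n = 4 libraries). It was followed by Atp2a2 at 270.4 ± 29.5, Slc8a1 at 186 ± 15.8, Casq2 at 135 ± 23.3 and Ryr2 at 41.0 ± 2.31 CPM per kb. Below these lay Jph2 at 22.7 ± 5.11, Cacna1c at 15.6 ± 1.39, Camk2d at 10.2 ± 0.741, Cacna1d at 8.72 ± 1.31 and Sln at 6.39 ± 2.53 CPM per kb. The ranges over the 4 libraries did not overlap between neighbours in this order down to Camk2d; Camk2d and Cacna1d overlapped, as did Cacna1d and Sln. The same order held within each library, except that Cacna1d stood above Camk2d in mutant replicate 1. Exon length is a choice: with the longest annotated transcript in place of all exons, Camk2d measured 41.6 CPM per kb and moved above Cacna1c (25.2) and Jph2 (22.9), Ryr2 measured 70.2, and the first 5 places were kept.

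**Figure D1:**
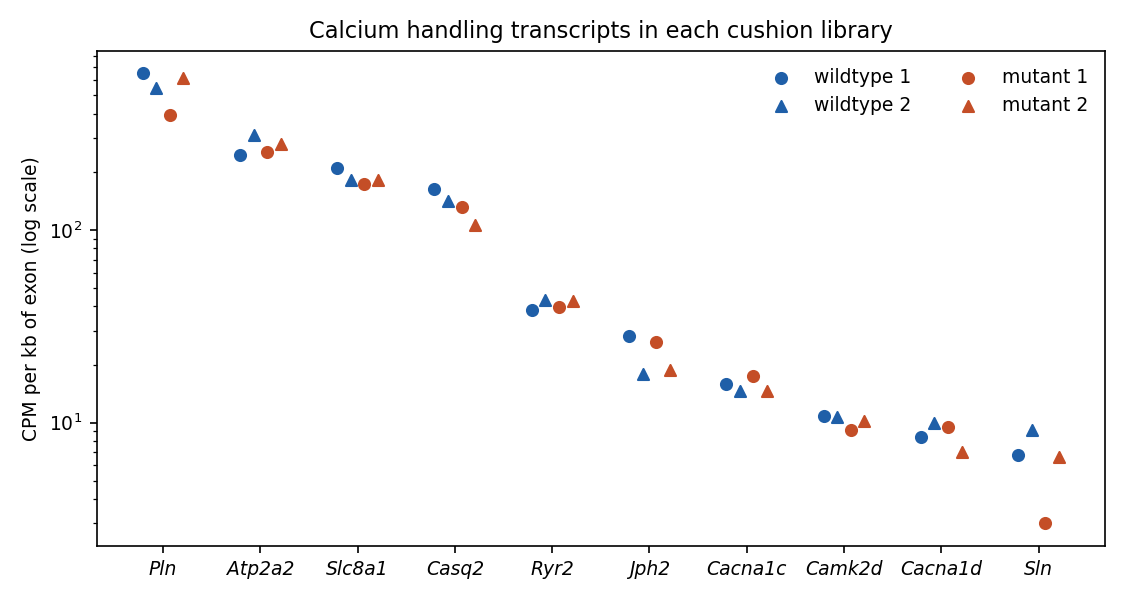
CPM per kb of annotated exon (y, log scale) of the 10 calcium handling genes (x) in each library; points are single libraries, blue wildtype and orange mutant, circles replicate 1 and triangles replicate 2. Pln is at the top between 392 and 649 and Sln at the bottom between 3.01 and 9.15, and in most genes the genotypes interleave.

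The surface channels are the point of calcium entry. Cacna1c, which encodes the pore of the cardiac L-type channel Cav1.2 (chromosome 6, 118587240 to 119196418; this and the positions that follow are on mm10, from GENCODE M21), stood at 337 and 308 CPM in the wildtypes and at 371 and 309 CPM in the mutants. Mutant replicate 1 was the highest and the other 3 libraries lay between 308 and 337, so the genotypes overlapped, and the log2 fold change was 0.077 ± 0.14 (SE; 95% interval -0.24 to 0.39; edgeR adjusted p = 0.985). Cacna1d, the pore of Cav1.3, a channel known from pacemaker and atrial cells (chromosome 14, 30039939 to 30491455), stood at 106 and 125 CPM in the wildtypes and at 120.3 and 88.5 CPM in the mutants. The pairs went opposite ways, at a log2 difference of 0.18 in pair 1 and -0.50 in pair 2, and the fit over 4 libraries gave -0.15 ± 0.17 (interval -0.53 to 0.23). The ratio of Cacna1d to Cacna1c per kb was 0.529 and 0.683 in wildtype and 0.545 and 0.480 in mutant replicates 1 and 2. Cacna1d shares 589 exon bases with Chdh on the other strand, and since the strand setting of the counting is not given, reads there cannot be assigned to either gene with certainty.

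The release side comprises the channel, its calcium buffer and the tether that holds store and surface together. Ryr2, the cardiac ryanodine receptor (chromosome 13, 11553102 to 12106945), stood at 1109 and 1248 CPM in the wildtypes and at 1139 and 1223 CPM in the mutants. The mutant values lay between the wildtype values, with a log2 fold change of 0.0033 ± 0.14 and a 95% interval of -0.32 to 0.33. Jph2, junctophilin-2, which spans the gap between surface membrane and store (chromosome 2, 163336242 to 163397993), stood at 119 and 75.7 CPM in the wildtypes and at 111 and 80.2 CPM in the mutants. It was high in both replicate 1 libraries and low in both replicate 2 libraries, so it differed more by replicate number than by genotype (log2 fold change -0.028 ± 0.22; interval -0.53 to 0.48).

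Casq2 is cardiac calsequestrin, the protein that binds calcium inside the store (chromosome 3, 102086415 to 102146514). It had the lowest p of the members in the edgeR fit without the replicate block. With the block, the edgeR quasi-likelihood p was lower for Sln, at 0.0051 against 0.0489 for Casq2. Casq2 stood at 445 and 385 CPM in the wildtypes and at 360.3 and 291 CPM in the mutants, so both mutant libraries lay under both wildtype libraries. The mean was 415 ± 42.6 CPM in wildtype and 326 ± 49.1 CPM in mutant (SD, n = 2 each), a ratio of 0.785. The log2 fold change was -0.35 ± 0.15 (SE), at -0.30 in pair 1 and -0.40 in pair 2, with an unadjusted p of 0.0455 and an edgeR adjusted p of 0.846 over all genes. It was -0.20 without mutant replicate 2 and -0.51 without mutant replicate 1, and its adjusted p was at least 0.133 in every alternative run. The authors' deposited table gives -0.35 with a p of 0.0729 before and 0.9999 after adjustment, in their own edgeR comparison.

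The 250 bases before the RefSeq starts of Casq2 and Pln are shown. Casq2 was the member of lowest p in the edgeR fit without the block, and Pln the member of highest level. The libraries do not measure these sequences. The sequences are the RefSeq promoter entries on GRCm38.p6, cut before the transcript start, on the plus strand: chr3:102086165-102086414 for Casq2 and chr10:53337436-53337685 for Pln. GENCODE starts Pln at 53337667, so the end of the Pln window lies inside that gene model. Capitals mark matches on either strand to the TATA box letters TATAAA, the GATA core GATAA, the TEAD core CATTCC, a MEF2 site or a CArG box. The E-box CANNTG was also searched and is not marked, and matches to different motifs may overlap.
Casq2: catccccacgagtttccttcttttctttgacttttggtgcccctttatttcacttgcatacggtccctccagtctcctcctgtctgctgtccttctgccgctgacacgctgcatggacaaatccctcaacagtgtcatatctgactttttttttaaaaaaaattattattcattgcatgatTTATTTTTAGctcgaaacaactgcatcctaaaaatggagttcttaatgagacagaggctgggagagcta
Pln: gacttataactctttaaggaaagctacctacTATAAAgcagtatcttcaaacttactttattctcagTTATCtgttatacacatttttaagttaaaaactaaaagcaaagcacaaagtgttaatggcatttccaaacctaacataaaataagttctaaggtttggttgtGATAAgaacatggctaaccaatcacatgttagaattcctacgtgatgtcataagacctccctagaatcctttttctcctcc
The Casq2 window holds 1 match to the MEF2 site, the binding site of the MEF2 muscle transcription factors, at 69 to 60 bases before the start, and 2 matches to CANNTG; 1.69% of 32851 promoter windows of this length hold a MEF2 site and 66.2% hold CANNTG. The Pln window holds TATAAA at 219 to 214 bases and GATAA, the core read by GATA factors, at 183 to 179 and at 81 to 77 bases before the start; 12.4% and 22.6% of windows hold them. Entries were found for 8 of the 10 members, with 12 windows in all. Among these 12 windows the MEF2 site was matched in 1, TATAAA in 2, GATAA in 3 and CANNTG in 10 (7 of the 8 members). CATTCC and the CArG box were matched in 0, where 12.6% and 1.47% of all windows hold them. Such matches are letters in a window and do not show binding.

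The uptake side is the pump and its peptide inhibitors. Atp2a2, the SERCA2 pump (chromosome 5, 122453513 to 122502225), stood at 1479 and 1879 CPM in the wildtypes and at 1533 and 1687 CPM in the mutants. The mutant values again lay between the wildtype values (log2 fold change -0.060 ± 0.16; 95% interval -0.43 to 0.31). Pln (chromosome 10, 53337667 to 53345987) stood at 1790 and 1509 CPM in the wildtypes and at 1083 and 1690 CPM in the mutants. Mutant replicate 1 was thus the low library and mutant replicate 2 lay within the wildtype range. The log2 difference was -0.73 in pair 1 and 0.16 in pair 2, and the fit gave -0.25 ± 0.21 with an edgeR adjusted p of 0.967. Without mutant replicate 2 it was -0.60, where the low library was the only mutant left, and without mutant replicate 1 it was 0.034. Of the 2.76 kb of Pln exon, 1785 bases are shared with 2 genes on the other strand, Cep85l and Gm47644, in GENCODE. As for Cacna1d, reads there cannot be assigned with certainty. This limit holds for the level of Pln per kb and for its ratio to Atp2a2.

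Sln, which encodes sarcolipin, the SERCA inhibitor known from atrial muscle (chromosome 9, 53850164 to 53854560), was read 167 and 191 times in wildtype and 90 and 124 times in mutant replicates 1 and 2. These reads correspond to 8.89 and 12.1 CPM in the wildtypes, against 3.96 and 8.76 CPM in the mutants. Both mutant libraries lay under both wildtype libraries, though mutant replicate 2 and wildtype replicate 1 differed by less than the spread between libraries. The log2 fold change was -0.75 ± 0.35 (SE; 95% interval -1.53 to 0.032), with an unadjusted p of 0.0581 and an edgeR adjusted p of 0.891. Pair 1 gave -1.15 and pair 2 gave -0.46. Without mutant replicate 2 it was -1.39, where the only mutant library left was the one lowest for Sln. Mutant replicate 1 left out gave -0.26. The authors' deposited table gives -0.80 with a p of 0.00317 before and 0.307 after adjustment.

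The level of Sln may be read beside genes of the heart chambers, since the 11 chamber genes listed include atrial ones. Myl2 and Myl7 of this list are also among the 20 sarcomere genes. Of the 11 chamber genes, 10 had a log2 fold change below 0, where 50.5% of all genes did. By edgeR 0 passed, against 0.0629% of all genes, and 3 were lower at an unadjusted p under 0.05, against 1.9%. DESeq2 (0.442% of all genes called) called 1, Nppa, as did the fit with the replicate block (0.887%). The summed level of the 11 was 6047 and 5254 CPM in the wildtypes, against 3807 and 5977 CPM in the mutants. This sum was lowest in the library where Sln and Pln were lowest. Most of it was the ventricular Myl2 alone, at 4663 and 3748 CPM in the wildtypes and 2885 and 4763 CPM in the mutants. Nppa, atrial natriuretic peptide, was at -1.08 ± 0.16. The other chamber genes ran from Gja5, an atrial and conduction connexin, at -0.57 ± 0.21 to Hey1 at 0.067 ± 0.18. Among them the atrial Myl7, Nr2f1 and Nr2f2 were at -0.12 ± 0.25, -0.024 ± 0.45 and -0.12 ± 0.24, and the ventricular Irx4 and Myl2 at -0.40 ± 0.18 and -0.14 ± 0.24. These genes were picked after their values were seen. Whether the amount of chamber muscle in a library bears on Sln or Pln was not tested.

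Within a library the inhibitors can be set against the pump. The ratio of Pln to Atp2a2 per kb was 2.67 and 1.77 in wildtype and 1.56 and 2.21 in mutant replicates 1 and 2. The mean ratio was 2.22 ± 0.635 in wildtype and 1.88 ± 0.461 in mutant, a difference smaller than the spread within either genotype. Sln stood at 0.0104 and 0.0167 of Pln per kb in wildtype and at 0.00766 and 0.0108 in mutant, so the ranges overlapped. Ryr2 and Atp2a2 kept a narrower ratio, 0.158 and 0.140 in wildtype and 0.157 and 0.153 in mutant.

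Slc8a1, the sodium calcium exchanger NCX1, which moves calcium out across the surface membrane (chromosome 17, 81373105 to 81738377), had the most reads of the members. It took 0.349% of gene reads and ranked 10 among the 14316 genes by mean CPM. It stood at 3929 and 3398 CPM in the wildtypes and at 3248 and 3417 CPM in the mutants. Wildtype replicate 1 was the high library and the other 3 lay close together (log2 fold change -0.14 ± 0.16; 95% interval -0.49 to 0.22). The locus is known to give an abundant circular RNA in heart, and in RNA depleted of ribosomal RNA a gene row can hold linear, circular and unspliced transcript alike, which these counts do not separate.

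Camk2d, the main cardiac calcium/calmodulin-dependent kinase II, which phosphorylates phospholamban and the ryanodine receptor (chromosome 3, 126596302 to 126846326), stood at 243 and 240.3 CPM in the wildtypes and at 206 and 229.9 CPM in the mutants. Both mutant libraries lay under both wildtype libraries, by little in replicate 2. The log2 fold change was -0.15 ± 0.12 (95% interval -0.43 to 0.13; edgeR adjusted p = 0.967). Genes whose genotypes did not overlap were thus 3 of 10, Casq2, Sln and Camk2d, in each of which the mutant was lower, where 33.2% of all genes did not overlap and 16.3% were lower in both mutant libraries.

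**Figure D2:**
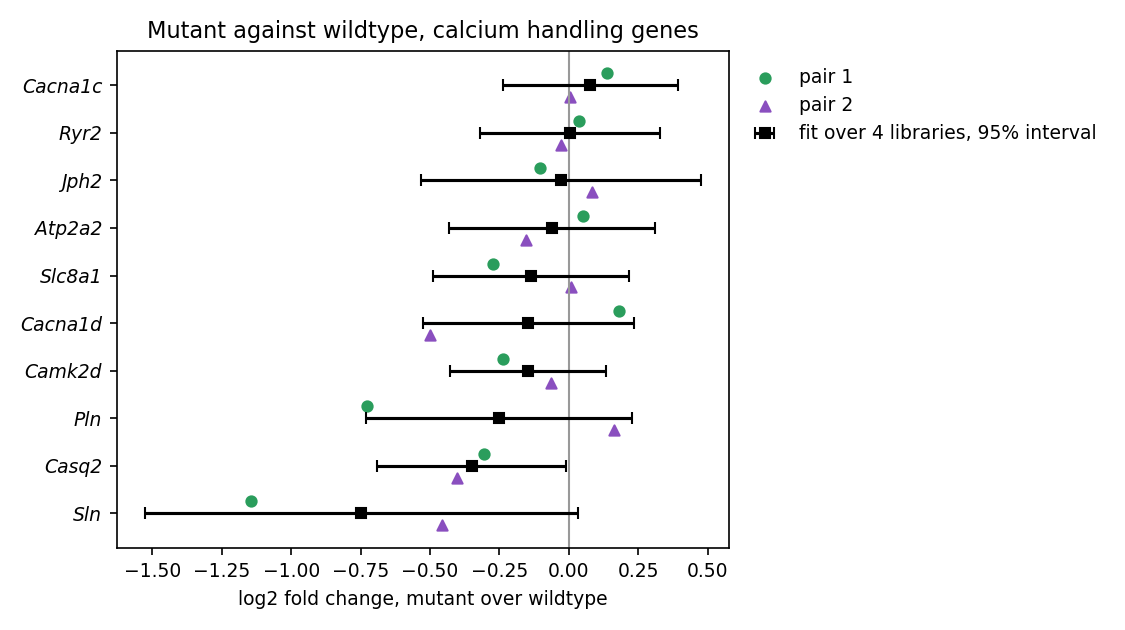
Log2 fold change, mutant over wildtype (x), of each member (y): black squares are the edgeR fit over 4 libraries with 95% intervals, green circles pair 1 and purple triangles pair 2. Casq2, Sln and Camk2d are below 0 in both pairs, Pln and Cacna1d have the widest gaps between pairs of opposite sign, and the interval of Casq2 alone ends short of 0, at -0.0086.

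As a list, 8 of 10 members had a log2 fold change below 0, where 50.5% of all genes did, with a median of -0.14 against -0.0027 over all genes. Pair 1 had a median of -0.17 and pair 2 of -0.046, with 6 of 10 members below 0 in each. The count below 0 was also 8 with RLE or upper-quartile scaling, 7 without scaling factors, where 45.4% of all genes were below 0. It was 3 with the libraries scaled to their summed sarcomere reads, a scaling that moves the median of all genes by 0.19 and leaves 17.7% of them below 0.

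The 20 sarcomere genes showed how heart muscle transcript varied between libraries. Their summed level was 82980 and 73550 CPM in the wildtypes, against 65610 and 71440 CPM in the mutants. Of the 20, 17 had a log2 fold change below 0, where 50.5% of all genes did, with a median of -0.13. Pair 1 had a median of -0.31 with 18 of 20 below 0, and pair 2 a median of 0.0081 with 9 of 20 below 0. By edgeR 0 passed (0.0629% of all genes), and 2 were lower at an unadjusted p under 0.05 (1.9% of all genes). DESeq2 (0.442% of all genes called) called 1, Myl4, the embryonic and atrial light chain (edgeR log2 fold change -0.62 ± 0.17). Titin (Ttn) was at -0.24 ± 0.18 and beta myosin (Myh7) at -0.018 ± 0.18. The summed sarcomere reads were 1558309 and 1165401 in wildtype and 1490879 and 1011571 in mutant. Of these, Ttn alone gave 704125 and 549061 in wildtype and 671452 and 443695 in mutant, so the scale rests largely on it. Per 1000 sarcomere reads, Slc8a1 measured 47.4 and 46.2 reads in wildtype and 49.5 and 47.8 in mutant replicates 1 and 2, a narrower spread than in CPM. Casq2 measured 5.36 and 5.23 in wildtype and 5.49 and 4.07 in mutant, so that mutant replicate 2 alone was low. Sln measured 0.107 and 0.164 in wildtype and 0.0604 and 0.123 in mutant, and Pln 21.6 and 20.5 in wildtype and 16.5 and 23.7 in mutant. On this scale the genotypes overlapped for these 2 inhibitors and for Casq2. Ryr2 measured 13.4 and 17.0 in wildtype and 17.4 and 17.1 in mutant, so that wildtype replicate 1 stood apart and both mutants lay above both wildtypes, one of which was close to them. Cacna1c measured 4.06 and 4.19 in wildtype and 5.65 and 4.33 in mutant. Ryr2, Slc8a1 and Cacna1c were the 3 of 10 members with both mutants above both wildtypes on this scale, where 38.1% of all genes were, and 0 of 10 lay under, where 3.84% of all genes did.

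**Figure D3:**
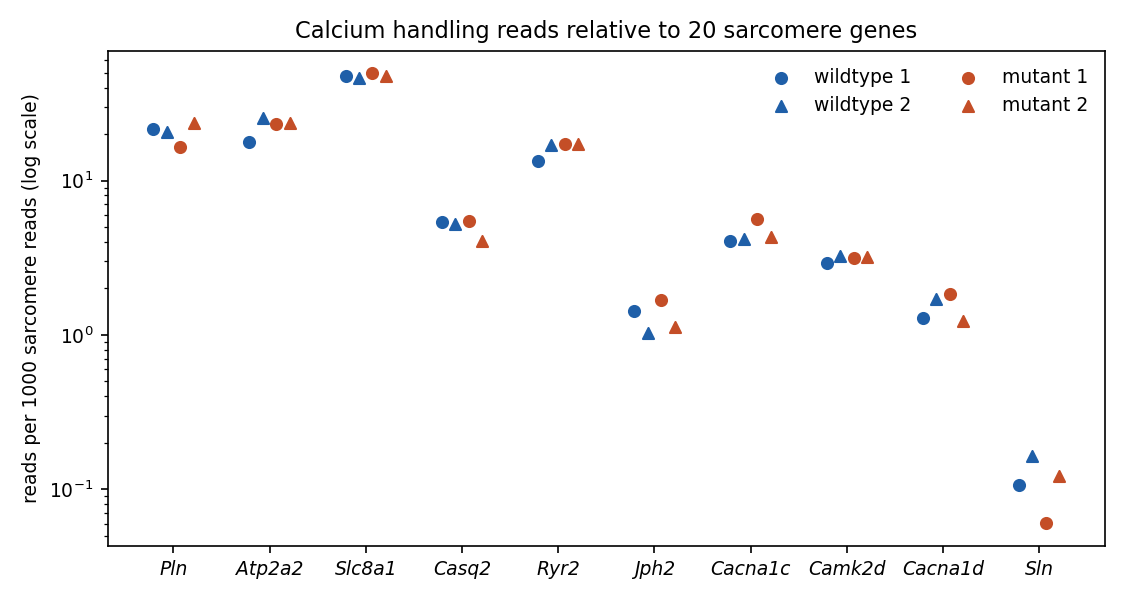
Reads of each member per 1000 reads of the 20 sarcomere genes (y, log scale), by gene (x) and library; colours mark genotype and shapes the replicate. Slc8a1 lies between 46.2 and 49.5 in the 4 libraries, and Sln is lowest in mutant replicate 1 at 0.0604.

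Most members were the leading gene of their family per kb of exon. Atp2a2 made up 99.5% to 99.7% of the 3 SERCA genes, Slc8a1 98.4% to 99.1% of the 3 exchangers, Ryr2 88.2% to 90.9% of the 3 ryanodine receptors and Jph2 84.7% to 89.2% of the 4 junctophilins over the libraries. Ryr3 was the second ryanodine receptor at a mean of 88.0 CPM, and Ryr1, the skeletal muscle receptor, was at 1.07 CPM. Among 5 voltage-gated channel pores Cacna1c held 41.4% to 45.8%, Cacna1d 22.0% to 28.3% and the T-type channel Cacna1h 20.6% to 22.7%.

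Calsequestrin was less one-sided. Casq1, known as the skeletal muscle calsequestrin, stood at 208 and 169 CPM in the wildtypes and at 189 and 218 CPM in the mutants, and Casq2 held 48.8% to 61.9% of the 2 genes per kb. Casq2 was above Casq1 in all libraries but mutant replicate 2, where Casq1 was higher, both per kb of all exons and by the longest transcript. Casq1 had a log2 fold change of 0.11 ± 0.15. It shares 156 exon bases with an antisense gene. Among the members, Slc8a1 shares 304 exon bases and Atp2a2 83 with genes on the other strand, besides Cacna1d and Pln described above. For kinase II the order of Camk2d and Camk2g depends on the length used: per kb of all exons Camk2g stood higher (15.8 against 10.2 CPM per kb), and by the longest transcript Camk2d did (41.6 against 27.4). Family members other than the 10 were set beside them after their levels were seen.

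**Figure D4:**
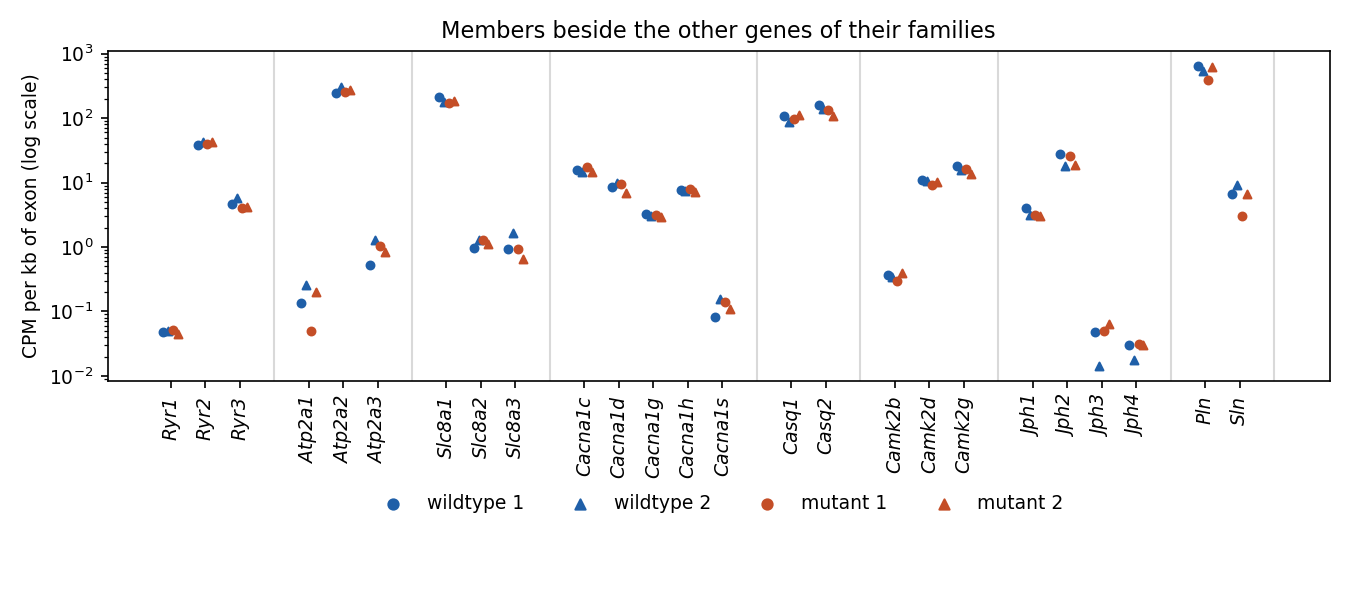
CPM per kb of annotated exon (y, log scale) for the members and the other genes of their families (x, families separated by lines) in each library; colours mark genotype and shapes the replicate. Atp2a2, Slc8a1, Ryr2 and Jph2 stand apart from their relatives, while Casq1 and Casq2 are close, with Casq2 at 48.8% to 61.9% of their sum.

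The wider calcium handling list held 90 genes in 7 roles, of which 87 were tested. By edgeR 0 passed, where 0.0629% of all genes tested did. At an unadjusted p under 0.05, 4 were lower and 2 higher, against 1.9% and 3.88% of all genes. DESeq2, limma-voom and the replicate block called 0 of them, against 0.442%, 0.0489% and 0.887% of all genes. The median log2 fold change of the 87 was -0.052. By role the medians were -0.075 for 15 release and junction genes, -0.037 for 11 pumps and regulators, -0.056 for 19 surface channel genes, 0.022 for 9 exchanger and sodium pump genes, -0.052 for 21 sensors, kinases and scaffolds, -0.12 for 6 genes of membrane folds and -0.096 for 6 mitochondrial genes.

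The lowest p belonged to Ppp1r3a, a subunit that targets protein phosphatase 1 to glycogen and the muscle store (chromosome 6, 14713977 to 14755274). It was read 1867 and 1514 times in wildtype and 1275 and 985 times in mutant replicates 1 and 2. The log2 fold change was -0.64 ± 0.15, at -0.82 in pair 1 and -0.46 in pair 2, with an unadjusted p of 0.00182 while its adjusted p was 0.224 by edgeR, 0.0942 by edgeR with the block and 0.0578 by DESeq2. Trdn, triadin, which anchors calsequestrin to the ryanodine receptor, was at -0.34 ± 0.12 (unadjusted p = 0.0204, edgeR adjusted p = 0.679). Its log2 difference was -0.43 in pair 1 and -0.25 in pair 2, and like Casq2 it was lower in both mutant libraries than in both wildtype libraries. The other 3 of lowest p were Trpc6, a receptor-operated cation channel, at -0.67 ± 0.21, Slc24a2, a potassium-dependent exchanger, at -0.40 ± 0.13, and Pde3a, a phosphodiesterase of the store membrane, at 0.38 ± 0.14.

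The genes of highest level per kb in each role were Srl, sarcalumenin, at -0.17 and Casq1 on the release side, Calr, the calcium-binding chaperone calreticulin, at 0.094 and Atp2c1, a Golgi calcium pump, at -0.029, and Cacna2d1, an auxiliary channel subunit, at -0.16 with Stim2, a store sensor, at 0.027. Atp1b1, a beta subunit of the sodium pump, was at 0.17, and calmodulin genes Calm2 and Calm3 at -0.18 and -0.039. Cav3, muscle caveolin, and Tcap, telethonin, were at -0.18 and -0.35, and the mitochondrial uniporter genes Mcu and Micu2 at -0.056 and -0.14. The lowest edgeR adjusted p among them was 0.954, of Tcap, which is also among the 20 sarcomere genes.

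**Figure D5:**
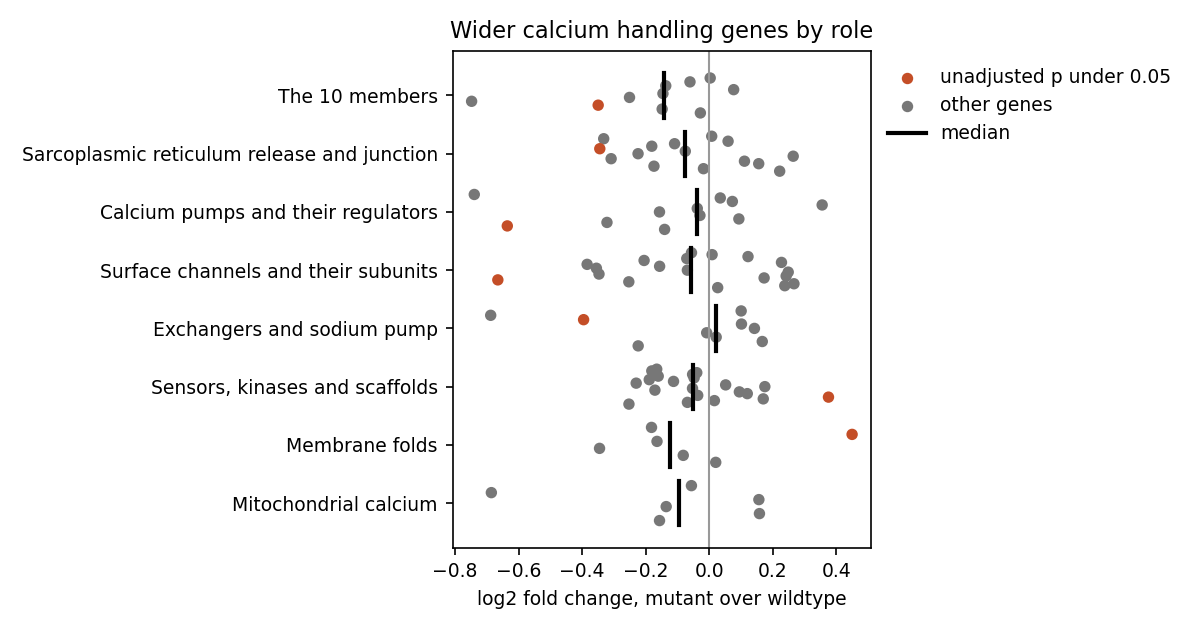
Log2 fold change, mutant over wildtype (x), of the 10 members and of the wider calcium handling genes by role (y); each point is a gene, orange at an unadjusted p under 0.05, and black bars are medians. Medians lie between -0.14 and 0.022, and the orange points are 1 member and 6 of the 87 wider genes.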

How the data were processed

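Total RNA of 4 cushion libraries was depleted of ribosomal RNA and made into ScriptSeq libraries, per the labels' protocols. The authors deposited raw counts per gene symbol; the submitters' processing notes name Bowtie2, TopHat2, SAMtools, HTSeq and edgeR and the mm10 build, with neither versions nor annotation nor strand setting (not given in the sources used here). Reads outside any feature (51.8% to 54.4%), aligned to several places (16.1% to 17.0%) or ambiguous (0.187% to 0.210%) stayed out of library sizes and tests. The authors also deposited their edgeR comparison, with log2 fold changes (wildtype over mutant by comparison with the counts, turned round here), log2 CPM, a likelihood ratio score, p-values and, for rows past the threshold, a fold change ratio.

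In R 4.3.3 the counts went into edgeR 4.0.16 (filterByExpr, TMM scaling, quasi-likelihood F test, Benjamini-Hochberg adjustment over 14316 genes, threshold 0.05) and tested on simulated data. Pair differences are of log2 CPM with a prior count of 2; a standard error is the log2 fold change over the root of F. Alternatives used DESeq2 1.42.0, limma 3.58.1 and others. A floor of 3 reads is 0.134 to 0.213 CPM, covering counting error only. Exon lengths and positions are from GENCODE M21 (mm10). Same-numbered libraries were read as pairs, from the series text; their deviations from the group means correlated at 0.144 across all genes tested and at 0.468 across the 10 members. The members, lists and tests were chosen with earlier results of these data known. All 10 members are named; of the wider list, the 2 genes of highest level per kb in each role, those past the threshold and the 5 of lowest p. A gene that this rule names is not reported here.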

Additional observations from a re-analysis of the deposited data

How the results depend on the processing

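Of 10 members, 0 passed under the alternatives run, except that 2 (Pln and Sln) passed without mutant replicate 2; leaving out 1 library gave 0 to 2. The count of 9 genes over the whole table became 127 with the replicate block, 171 by likelihood ratio, 62 by DESeq2, 236 without a low count filter, 78 with sarcomere scaling and 24 at a threshold of 0.10, and 3 to 443 with 1 library left out, where the lone library is assumed to vary like the other group. The replicate block changed no call of a member, and Sln was at -0.80 with it (adjusted p = 0.256). The median of the members became 0.051 with sarcomere scaling, which moved the median of all genes by 0.19. Sarcomere genes took a smaller share of gene reads in the mutants (6.65% and 7.17%) than in the wildtypes (8.11% and 7.38%). Sarcomere scaling also turned Atp2a2 (0.12), Cacna1d (0.046), Camk2d (0.039), Jph2 (0.19) and Slc8a1 (0.057) above 0. Jph2 was at 0.0041 without scaling factors, chosen after seeing the data, and Ryr2 at -0.0017 without a filter. With 1 library left out, log2 fold changes ranged from -0.22 to 0.12 for Atp2a2, -0.061 to 0.21 for Cacna1c, -0.39 to 0.063 for Cacna1d, -0.32 to 0.34 for Jph2, -0.60 to 0.034 for Pln and -0.076 to 0.089 for Ryr2. Casq2 and Sln stayed below 0 in all 15 alternatives. For reversals and moves, the cause was not tested. Slc8a1 has no value with the 10 most abundant genes left out, being one of them. Depth was not small for the members, Sln (90 to 191 reads) having the fewest; 2 libraries a genotype limit the intervals.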
